A study of Mus musculus with 6 samples.

Results

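Monocytes and macrophages carry a set of lysosomal and surface proteins that serve killing, digestion and antigen presentation. Of the 33924 genes in the deposited table of read counts, 9 genes of this kind were taken by their symbols: Lyz1, Lyz2, Ly6c1, Ly6c2, Cd68, Ctss, Mpeg1, Ifi30 and Slc11a1. Earlier results of these data were known when they were chosen. Of the 9, 8 passed the filter on low counts and were tested among 13406 genes. Lyz1 did not pass. Ly6c1 and Ly6c2 encode proteins of the cell surface, and the other 7 encode proteins of lysosomes, phagosomes or granules.

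The libraries came from mouse acute myeloid leukaemia that carried MLL-AF9, a fusion oncogene delivered by a retrovirus. It had been put either into LSK cells (lineage-negative, Sca-1 and Kit positive marrow cells, which include the blood stem cells) or into granulocyte-macrophage progenitors (GMP). In both groups, GFP+ cells expanded in culture were given to lethally irradiated C57BL/6 recipients of the same strain with support marrow from wild-type mice. AML cells were then taken from the marrow of moribund mice and kept in medium with SCF, IL-3 and IL-6. There were 3 LSK-derived libraries (LSK 44, LSK 45 and LSK 46) and 3 GMP-derived libraries (GMP 5, GMP 11 and GMP 19), and the groups shared the oncogene, the host and the culture. Values are given in this order of libraries throughout. No normal and no inhibitor-treated library was used here. Whether each library stems from its own transduction or mouse is not stated in the labels, and a p-value here reflects the spread among these 6 libraries alone.

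A lysosome is an acid compartment that fuses with phagosomes and endosomes. There, lysozyme cuts bacterial cell walls, cathepsins cut proteins, and a thiol reductase opens disulfide bonds so that antigens can be unfolded and loaded on MHC class II. Monocytes and their precursors make several of these proteins in large amounts, and Ly6C on the surface marks the inflammatory monocyte of the mouse.

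Lyz1 and Lyz2 are neighbouring copies of the lysozyme gene. Lyz2 is the form of myeloid cells, and Lyz1 is best known from Paneth cells of the gut. The 100 bases before each start are shown because the pair's levels in these libraries lay far apart. They were taken from RefSeq on GRCm38.p6, as were all promoter sequences here. Lyz1 lies at chr10:117292869-117292968 and Lyz2 at chr10:117282273-117282372, both on the minus strand, written 5′ to 3′ toward the start, with the bases that differ in capitals.
Lyz1: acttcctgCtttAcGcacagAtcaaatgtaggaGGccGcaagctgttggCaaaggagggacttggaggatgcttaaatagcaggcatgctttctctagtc
Lyz2: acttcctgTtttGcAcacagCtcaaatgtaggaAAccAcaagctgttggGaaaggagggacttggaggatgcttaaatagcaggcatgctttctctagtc
The 100 bases differed at 8 positions, and the nearest of these lay 51 bases before the start. Over 250 bases the aligned promoters were 79.37% identical, and the longest transcripts of the pair were 91.95% identical. For Ly6c1 and Ly6c2 the promoters were 57.75% and the transcripts 95.02% identical.

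The 250 bases before the start of Ifi30, Slc11a1 and Ctss follow. Ifi30 and Slc11a1 are shown as the members that differed between the groups, and Ctss as the member with matches to 2 of the motifs searched. Capitals mark those matches. Ifi30 lies at chr8:70766664-70766913 on the minus strand, Slc11a1 at chr1:74374953-74375202 on the plus strand and Ctss at chr3:95526536-95526785 on the plus strand.
Ifi30: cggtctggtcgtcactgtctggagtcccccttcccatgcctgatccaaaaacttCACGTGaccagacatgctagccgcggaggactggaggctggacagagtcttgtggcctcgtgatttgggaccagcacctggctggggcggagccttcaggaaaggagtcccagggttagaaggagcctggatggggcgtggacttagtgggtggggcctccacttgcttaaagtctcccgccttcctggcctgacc
Slc11a1: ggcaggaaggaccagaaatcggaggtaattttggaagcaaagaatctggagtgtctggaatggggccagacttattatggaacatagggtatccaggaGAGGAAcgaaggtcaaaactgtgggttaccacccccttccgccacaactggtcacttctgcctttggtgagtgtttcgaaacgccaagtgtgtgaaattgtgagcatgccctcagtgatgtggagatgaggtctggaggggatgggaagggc
Ctss: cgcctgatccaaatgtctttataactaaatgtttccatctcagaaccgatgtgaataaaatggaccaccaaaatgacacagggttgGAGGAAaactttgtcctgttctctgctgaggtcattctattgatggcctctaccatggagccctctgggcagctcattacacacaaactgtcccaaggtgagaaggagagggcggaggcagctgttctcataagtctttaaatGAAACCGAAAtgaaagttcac
The motifs were the purine-rich core bound by PU.1 (GAGGAA), the interferon-stimulated response element repeat (a pair of GAAA blocks spaced by any 2 bases), the ETS-IRF composite element (GGAA and then GAAA, spaced likewise), the E-box of the TFEB family (CACGTG) and the gamma-interferon activated site (TTCNNNGAA). Each was searched on both strands in the 250 bases before the start, and matches to GAGGAA and to the ETS-IRF element can share bases; the matches in the members did not overlap. GAGGAA was present in 5 of the 9 members (Ly6c1, Ly6c2, Cd68, Ctss and Slc11a1) and in 23.3% of 32851 promoters of the same length. In Slc11a1 it lay 152 to 147 bases before the start. The interferon-stimulated repeat was present in Ctss alone, 21 to 12 bases before the start, and in 2.98% of promoters. CACGTG was present in Ifi30 alone, 196 to 191 bases before the start, and in 6.02% of promoters. No member matched the ETS-IRF element (2.3% of promoters) or TTCNNNGAA (7.02%). A match here describes letters in a window and nothing more.

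Ifi30 and Slc11a1 were lower in LSK-derived than in GMP-derived leukaemia, and no member was called higher. Ifi30 differed 3.02-fold and Slc11a1 6.57-fold by the log2 fold change of the edgeR fit. A gene was called at an edgeR adjusted p below 0.05. The 2 called members are 25% of the 8 tested, and 25.7% of all 13406 tested genes were called in either direction (11.8% higher, 13.9% lower), so the members' share was near the background. The count of 0 higher was the same at an unadjusted p below 0.05 in edgeR and with limma voom, and DESeq2 called 1, Cd68. Groups did not overlap in 4 of the 8 tested members (50%), against 45.4% of all tested genes. The median log2 fold change (LSK-derived minus GMP-derived) was 0.45 over the 8 members and 0.01 over all tested genes, with 5 members above 0 and 3 below.

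**Figure D1:**
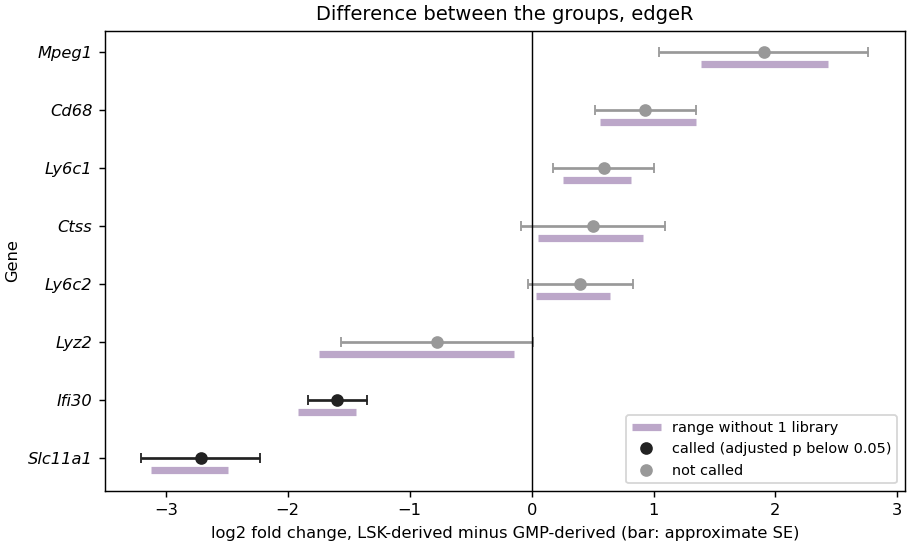
Log2 fold change of each tested member (LSK-derived minus GMP-derived), with an approximate standard error as the thin bar and the range over the fits that left out 1 library as the thick bar. Ifi30 (-1.59) and Slc11a1 (-2.71) are the called genes (black), and no thick bar crosses 0.

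Levels spanned a wide range. Given per length, as CPM (counts scaled to a common library total) divided by the longest transcript in kb, Ly6c2 was highest in both groups, at 1067 ± 318 in LSK-derived and 809 ± 392 in GMP-derived libraries (SD, n = 3). Lyz2 was next, at 114 ± 97.6 and 195 ± 135 CPM per kb. In the LSK-derived libraries Cd68 (51.4 ± 4.79), Mpeg1 (39.1 ± 19.7), Ctss (27.0 ± 13.4) and Ifi30 (19.1 ± 6.83) followed in CPM per kb. In the GMP-derived libraries the order below Lyz2 was Ifi30 (57.5 ± 5.99), Cd68 (26.9 ± 14.7), Ctss (19.03 ± 11.4) and Mpeg1 (10.4 ± 8.03). Ly6c1 lay at 8.54 ± 3.20 and 5.66 ± 2.46 CPM per kb, Slc11a1 at 0.134 ± 0.0656 and 0.853 ± 0.342, and Lyz1 at 0.0906 ± 0.0460 and 0.0730 ± 0.0419. In the LSK-derived libraries the ranges of neighbours overlapped from Lyz2 down to Ifi30. In the GMP-derived libraries the same held for Cd68, Ctss and Mpeg1, while Ifi30 lay above the range of each of them.

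**Figure D2:**
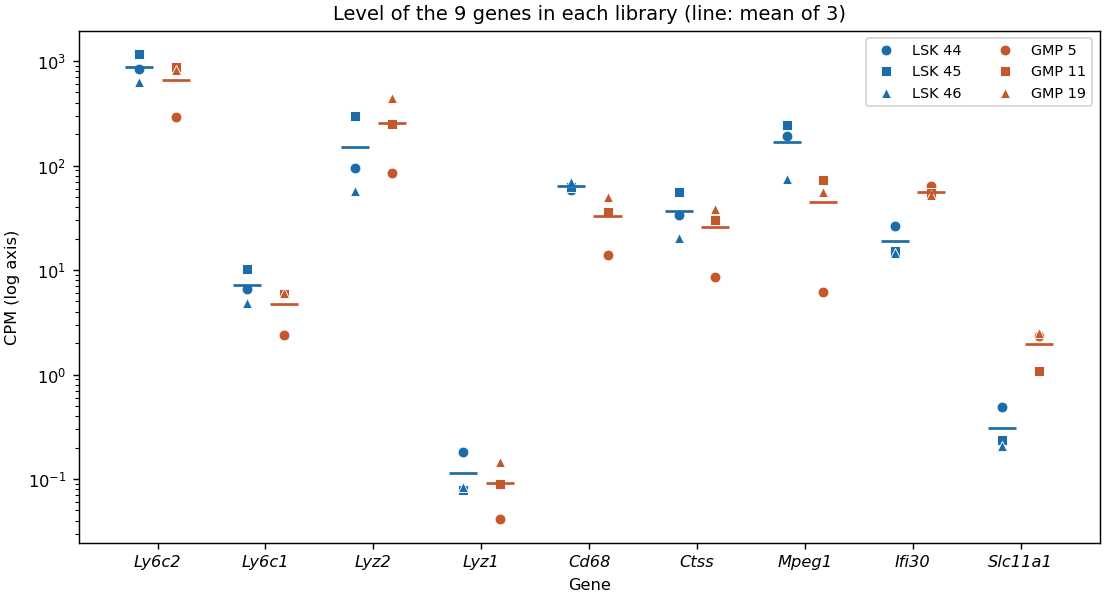
Level of each of the 9 genes in CPM (log axis) in every library, with the mean of 3 libraries as a line. Ifi30 and Slc11a1 lie higher in all 3 GMP-derived libraries, Cd68 and Mpeg1 lie higher in all 3 LSK-derived libraries, and Lyz2, Ly6c1, Ly6c2 and Ctss overlap.

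Lyz2 encodes the lysozyme of granulocytes, monocytes and macrophages. Its level was 95.7, 297 and 57.5 CPM in the LSK-derived libraries and 84.6, 247 and 439 CPM in the GMP-derived libraries. The groups overlapped, with LSK 45 above GMP 11 and GMP 5 below LSK 44, while LSK 46 was the lowest and GMP 19 the highest of the 6 libraries. The means were 150 ± 128 and 257 ± 177 CPM (SD, n = 3; log2 fold change -0.78 ± 0.78, approximate SE, adjusted p = 0.51). Within each group the highest library had 5.16 times (LSK-derived) and 5.18 times (GMP-derived) the lowest. The SD of log2 CPM in Lyz2 was 1.21 in the LSK-derived group, above 98.8% of tested genes, and 1.20 in the GMP-derived group, above 97.7%. Without LSK 45 the log2 fold change was -1.75 (adjusted p = 0.178), and without GMP 19 it was -0.14 (0.927).

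Lyz1 was at the edge of detection. It had 3, 2 and 2 counts in the LSK-derived libraries and 1, 3 and 5 counts in the GMP-derived libraries. These are 0.0410 to 0.181 CPM, while 3 counts amount to 0.0885 to 0.180 CPM depending on the library, so no fold is given. Of all counts on the lysozyme pair, Lyz1 held from 0.0265% in LSK 45 (2 of 7557 counts, exact 95% interval 0.00321 to 0.0956%) to 0.189% in LSK 44 (3 of 1585, 0.0391 to 0.552%). Its share averaged 0.120 ± 0.0841% and 0.0393 ± 0.00802% (SD, n = 3; exact two-sided permutation p = 0.4, where 0.1 is the smallest possible). The intervals cover counting error only. Of the 50-base windows of the Lyz1 transcript, 195 of 1214 (16.06%) also occur in that of Lyz2, and how such reads were assigned is not given in the sources used here. Summed, the pair gave a log2 fold change of -0.77 (adjusted p = 0.51).

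Ly6c1 and Ly6c2 encode the Ly6C antigens, small lipid-anchored proteins on the surface of inflammatory monocytes. Ly6c2 is the form used by monocytes, and Ly6c1 is also known from endothelium and lymphocytes. Ly6c2 was at 841, 1155 and 636 CPM in the LSK-derived libraries and at 293, 874 and 827 CPM in the GMP-derived libraries. GMP 5 lay below the rest, and the other 5 libraries were interleaved. The means of Ly6c2 were 877 ± 261 and 665 ± 322 CPM (log2 fold change 0.40 ± 0.43, adjusted p = 0.531), and without GMP 5 the log2 fold change was 0.04 (0.923).

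Ly6c1 was at 6.59, 10.2 and 4.87 CPM in the LSK-derived libraries and at 2.38, 5.94 and 6.01 CPM in the GMP-derived ones. Here too LSK 45 was highest and GMP 5 lowest. The means were 7.21 ± 2.70 and 4.77 ± 2.08 CPM (log2 fold change 0.59 ± 0.42, adjusted p = 0.34); the log2 fold change was 0.26 without LSK 45 and 0.27 without GMP 5. Ly6c1 held 0.675 to 0.873% of the pair's counts over the 6 libraries. The share was 0.803 ± 0.0606% in LSK-derived and 0.733 ± 0.0651% in GMP-derived libraries (SD, n = 3; exact two-sided permutation p = 0.3). Of the 50-base windows of the Ly6c1 transcript, 252 of 795 (31.7%) also occur in that of Ly6c2, so a level of Ly6c1 near 1% of its partner is uncertain. With the pair summed, the log2 fold change was 0.40 (adjusted p = 0.529).

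In the wider Ly6 and uPAR family, 4 of 10 tested genes were called higher in LSK-derived leukaemia and 0 lower, with a median log2 fold change of 0.50. Ly6e, which encodes a widely expressed surface protein of the family, was at 1039 ± 30.9 and 530 ± 80.04 CPM (adjusted p = 0.00191). Ly6a, which encodes the Sca-1 antigen used to sort LSK cells, was at 1.83 ± 1.03 and 0.255 ± 0.0840 CPM (adjusted p = 0.00977). Ly6c1 and Ly6c2 did not pass, and whether they differ from these relatives was not tested.

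Cd68 encodes macrosialin, a heavily glycosylated protein of the lysosome and endosome membrane that is used as a macrophage marker. It was at 57.9, 62.4 and 69.6 CPM in the LSK-derived libraries and at 13.8, 35.6 and 49.7 CPM in the GMP-derived libraries. All 3 LSK-derived values lay above all 3 GMP-derived values. The means were 63.3 ± 5.89 and 33.0 ± 18.1 CPM (log2 fold change 0.93 ± 0.42, unadjusted p = 0.0637, adjusted p = 0.151), and edgeR did not call it. DESeq2 gave the same log2 fold change of 0.93 with an adjusted p of 0.0407. Without GMP 5 the log2 fold change was 0.56 (adjusted p = 0.0532), and without GMP 19 it was 1.35 (0.0907). The spread of Cd68 was unequal: the SD of log2 CPM was 0.13 in the LSK-derived group, above 49.8% of tested genes, and 0.95 in the GMP-derived group, above 96.1%.

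Among 27 tested genes for other lysosomal membrane proteins, 3 were called higher and 6 lower, with a median log2 fold change of -0.28. Lamp1, which encodes the abundant membrane glycoprotein of the lysosome, was at 375 ± 32.8 and 670 ± 83.9 CPM (log2 fold change -0.84 ± 0.11, adjusted p = 0.00323). Its direction was opposite to the higher mean of Cd68. The count of lower genes in that list was 3 without LSK 44 or LSK 46 and 10 without GMP 5, and that of higher genes was 1 without LSK 44, LSK 46, GMP 11 or GMP 19.

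Ctss encodes cathepsin S, the cysteine protease that trims the invariant chain from MHC class II in antigen-presenting cells. It was at 33.4, 56.2 and 20.2 CPM in the LSK-derived libraries and at 8.61, 30.1 and 38.7 CPM in the GMP-derived libraries. LSK 45 was the highest and GMP 5 the lowest library, and the groups overlapped. The means were 36.6 ± 18.2 and 25.8 ± 15.5 CPM (log2 fold change 0.50 ± 0.59, adjusted p = 0.57). The log2 fold change was 0.05 without LSK 45 and 0.09 without GMP 5.

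Of 17 other lysosomal proteases tested, 3 were called higher and 7 lower in LSK-derived leukaemia (median log2 fold change -0.38). The 3 higher genes were Ctse (5.36 ± 2.80 and 0.334 ± 0.132 CPM), which encodes an aspartic protease of endosomes, Ctsc (159 ± 4.46 and 91.4 ± 12.6 CPM), whose product activates granule serine proteases, and Ctsh (15.5 ± 5.25 and 3.71 ± 1.75 CPM). Among the lower genes, Ctsz was at 276 ± 8.89 and 410 ± 38.0 CPM (adjusted p = 0.00427) and Ctsd, the main aspartic protease of lysosomes, at 506 ± 82.1 and 813 ± 88.6 CPM (0.0123). Without LSK 46 only 1 protease was called lower, and Ctsd was not among the called genes (adjusted p = 0.0538). Genes for cysteine protease inhibitors gave 0 higher and 3 lower of 4 tested (median log2 fold change -1.81). Cst7, which encodes cystatin F, an inhibitor carried to lysosomes, was at 10.9 ± 2.23 and 74.6 ± 9.79 CPM (6.84-fold, adjusted p = 0.000472).

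Mpeg1 encodes perforin-2, a pore-forming protein of macrophage phagosomes. It was at 192, 242 and 74.9 CPM in the LSK-derived libraries and at 6.15, 73.2 and 55.9 CPM in the GMP-derived libraries. The groups did not overlap, but LSK 46 and GMP 11 lay next to each other at 74.9 and 73.2 CPM. The means were 169 ± 85.6 and 45.1 ± 34.8 CPM (log2 fold change 1.90 ± 0.86, unadjusted p = 0.068, adjusted p = 0.158), so a fitted difference of 3.74-fold did not pass. The GMP-derived libraries differed 11.9-fold among themselves, and their SD of log2 CPM (1.95) lay above 99.5% of tested genes. Without GMP 5 the log2 fold change was 1.39 (adjusted p = 0.0968), and without GMP 11 it was 2.43 (0.165). Of the 3 other genes tested for pore proteins or subunits of pore complexes, Gsdmd, which encodes gasdermin D, was called lower (44.4 ± 3.70 and 74.3 ± 10.1 CPM, adjusted p = 0.00573).

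Ifi30 encodes GILT, the thiol reductase of lysosomes that interferon gamma induces. It was at 26.5, 15.2 and 14.6 CPM in the LSK-derived libraries and at 63.0, 54.1 and 52.0 CPM in the GMP-derived libraries. The highest LSK-derived value was below the lowest GMP-derived value by a wide margin. The means were 18.8 ± 6.70 and 56.4 ± 5.87 CPM (log2 fold change -1.59 ± 0.24, adjusted p = 0.00598). Unlike most members, Ifi30 was even among the GMP-derived libraries (SD of log2 CPM 0.15, above 45.6% of tested genes), and GMP 5 was its highest library. Leaving out each library in turn gave log2 fold changes from -1.92 to -1.44. In GENCODE M21, exons of Ifi30 overlap those of 6330537M06Rik on the opposite strand, which has no row in the table, and the strand setting of the counting is not given in the sources used here.

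Ifi30 belongs to a set of genes that interferon gamma can induce. Of 21 such genes tested, 5 were called higher and 2 lower (median log2 fold change 0.39). Gbp5, a guanylate-binding protein of host defence, was at 11.9 ± 6.30 and 1.35 ± 0.594 CPM (adjusted p = 0.00657), and Psmb9, a subunit of the immunoproteasome, at 62.2 ± 4.82 and 45.5 ± 0.763 CPM (0.00831). Among the lower genes, the chemokine gene Cxcl10 was at 0.254 ± 0.120 and 1.86 ± 0.970 CPM (adjusted p = 0.0112). Without LSK 44, GMP 5 or GMP 11 the higher count was 3, and without LSK 45 the lower count was 4.

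Of the 11 genes for MHC class II and its loading, which GILT and cathepsin S serve, 4 were called higher and 1 lower (median log2 fold change 1.18). H2-Ob was at 17.8 ± 4.32 and 4.595 ± 0.736 CPM (adjusted p = 0.00198) and H2-Aa at 3.89 ± 0.895 and 0.576 ± 0.225 CPM (0.00311). H2-DMb1, a subunit of the peptide-exchange factor, was called lower, as Ifi30 was, at 18.1 ± 1.85 and 39.2 ± 3.05 CPM (0.00118).

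Slc11a1 encodes NRAMP1, a transporter that moves divalent metals out of the phagosome, and the C57BL/6 strain is known to carry an allele without function. It was low throughout, at 0.484, 0.235 and 0.208 CPM (8, 6 and 5 counts) in the LSK-derived libraries. In the GMP-derived libraries it was at 2.34, 1.07 and 2.52 CPM (57, 36 and 86 counts). The lowest GMP-derived value was above the highest LSK-derived value. The means were 0.309 ± 0.152 and 1.98 ± 0.791 CPM (log2 fold change -2.71 ± 0.48, adjusted p = 0.00913). Leaving out each library in turn gave log2 fold changes from -3.12 to -2.49 (adjusted p up to 0.0428). Of 14 other iron and manganese genes tested, 2 were called higher and 2 lower (median log2 fold change -0.12), and none was higher without LSK 45, LSK 46, GMP 5 or GMP 19. The lower count was 1 without LSK 46 and 4 without LSK 45. Ftl1, the ferritin light chain, was lower (494 ± 13.6 and 1079 ± 169 CPM, adjusted p = 0.00152), as was Slc40a1, the iron exporter ferroportin (0.787 ± 0.106 and 13.1 ± 11.2 CPM, 0.0112), which lost its call without LSK 46 (0.0517).

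**Figure D3:**
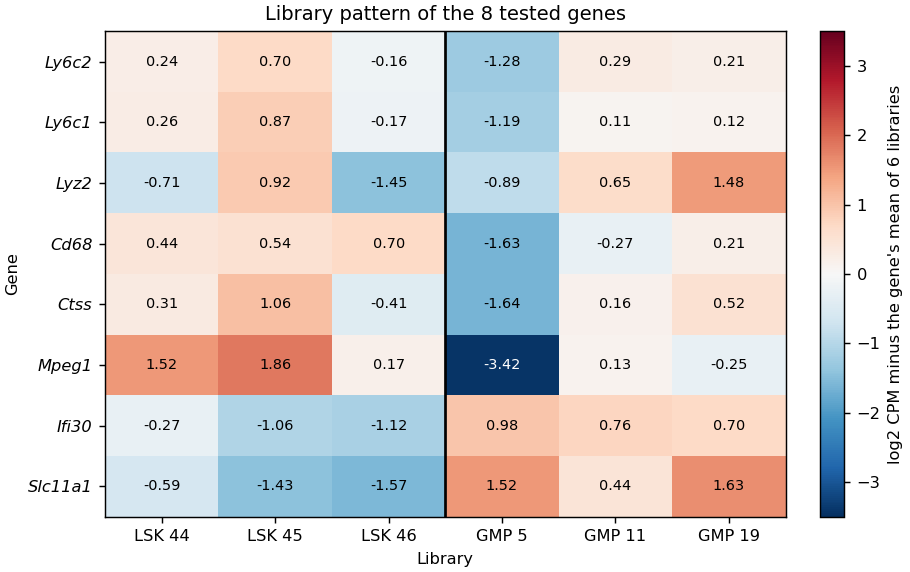
Deviation of each tested member from its own mean over 6 libraries, as log2 CPM, with LSK-derived libraries left of the line. Mpeg1 in GMP 5 is the lowest entry (-3.42), and Ifi30 and Slc11a1 are below their mean in all LSK-derived libraries and above it in all GMP-derived ones.

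Much of the members' variation lay between libraries of the same group. GMP 5 was the lowest GMP-derived library for 6 of the 8 tested members (75%), all but Ifi30 and Slc11a1, and for 37.3% of all tested genes. LSK 45 was the highest LSK-derived library for 5 of the 8 (62.5%), Lyz2, Ly6c1, Ly6c2, Ctss and Mpeg1, and for 38.1% of all tested genes. These libraries were singled out after their values were seen. The same libraries held the same places for 17 of 20 (85%) and 16 of 20 (80%) tested genes of the monocyte and macrophage marker list. They did so for 14 of 18 proton pump genes each (77.8%). LSK 45 was highest for 36 of 40 lysosomal hydrolases (90%), 15 of 17 proteases (88.2%) and 17 of 21 interferon gamma genes (81%). For those lists GMP 5 was lowest for 55%, 64.7% and 42.9%. GMP 5 was also lowest for 80% of neutrophil markers and for 100% of cysteine protease inhibitors, dendritic cell markers and B cell markers. Few genes of those lists were tested (10, 4, 4 and 3). LSK 45 was highest for 30%, 75%, 50% and 66.7% of them. In other lists a share fell below that of all tested genes. GMP 5 was lowest for 27.3% of class II genes and 30% of Ly6 and uPAR genes, though LSK 45 was highest for 54.5% and 50%. Among mast cell and basophil markers GMP 5 was lowest for 0%. LSK 45 was highest for 0% of erythroid and megakaryocyte markers. As a description over the 6 libraries of both groups, which share their scaling, the pattern of Ly6c1 was most like those of Ly6c2 (Pearson r of log2 CPM 0.98), Smurf1 (0.98) and Ctss (0.98) among 9849 genes with a mean of at least 5 CPM. Mpeg1 was most like Lgmn, a lysosomal protease gene (0.99), Daam1 (0.99) and Dtx2 (0.99). Lyz2 was most like Fes (0.99), Fis1 (0.99) and Abr (0.99). For Ifi30 and Slc11a1, 197 and 187 genes reached an r above 0.95, against 26 to 61 genes for the other members.

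Genes for the rest of the lysosome were counted in the same way. Of 40 glycosidases, lipases and other hydrolases tested, 1 was called higher and 17 lower (median log2 fold change -0.47), including Neu1 (44.5 ± 2.55 and 135 ± 22.0 CPM, adjusted p = 0.000657), which encodes a sialidase. Of 18 vacuolar proton pump genes, 1 was higher and 11 lower (median -0.41), and Atp6v1a, the catalytic subunit, was at 231 ± 15.2 and 387 ± 43.4 CPM (0.00336). Of 18 genes that control lysosome formation and nutrient sensing at its surface, 1 was higher and 8 lower (median -0.49). In these lists the members' 2 lower calls, Ifi30 and Slc11a1, had the direction of most called genes, while Cd68, Ctss and Mpeg1 had higher means in LSK-derived libraries. The lower counts changed with the libraries: without LSK 46 they were 7 for the hydrolases, 3 for the pump and 5 for the regulators, and the pump also gave 3 without LSK 44. They rose to 24 for the hydrolases without LSK 45, and to 13 for the pump and 12 for the regulators without GMP 5. The share of all tested genes called in those fits is not given here. The lone higher call fell to 0 in each of the 6 leave-outs for the regulators (Rragb), in 5 for the pump (Atp6v1g2) and in 4 for the hydrolases (Arsb). Of 12 tested monocyte transcription factors, 1 was called higher and 4 lower (median log2 fold change -0.60; 0 higher without LSK 44, LSK 46, GMP 5 or GMP 11), with Cebpb at 9.25 ± 1.32 and 25.2 ± 5.27 CPM (adjusted p = 0.00308) and Irf5 at 9.31 ± 0.0781 and 24.7 ± 7.58 CPM (0.00517).

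**Figure D4:**
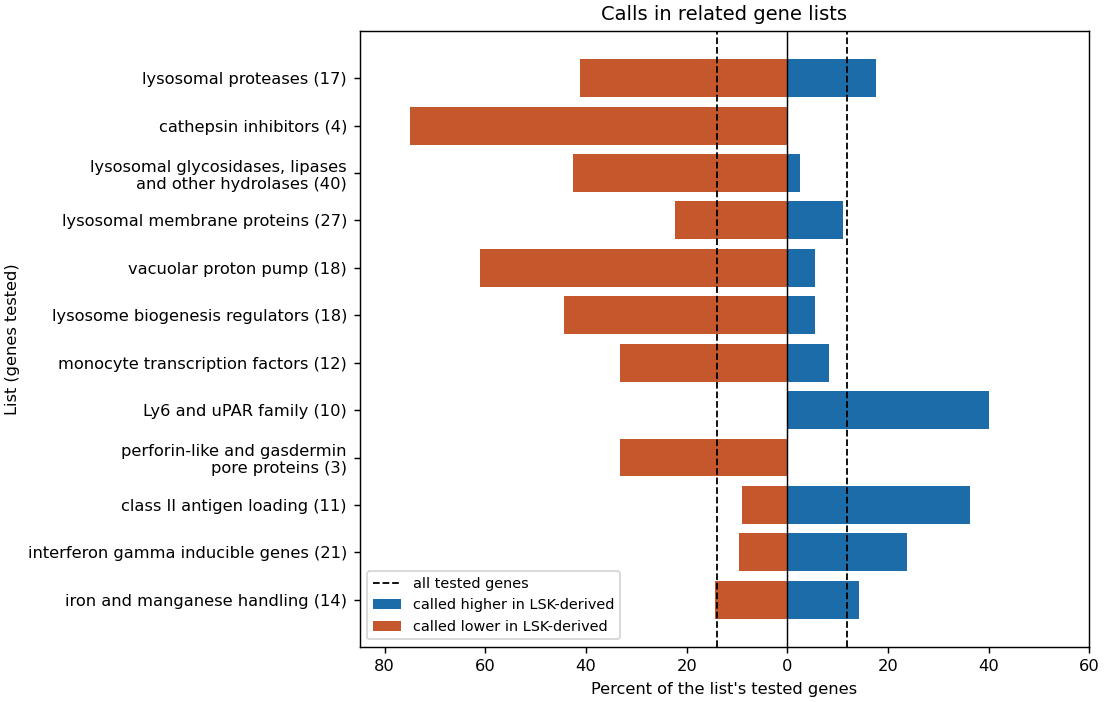
Percent of each list's tested genes (number in parentheses) called lower (left) or higher (right) in LSK-derived leukaemia, with dashed lines at 13.9% and 11.8%, the shares of all tested genes. The proton pump has 11 of 18 genes lower and the Ly6 and uPAR family 4 of 10 higher.

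Total counts lay between 16640929 and 33885428 per library. The label of the members as monocyte genes was set against the marker lists. Monocyte and macrophage markers summed to 651, 1549 and 464 CPM in the LSK-derived libraries and to 769, 1395 and 1619 CPM in the GMP-derived libraries, with 4 of 20 tested genes higher (1 without LSK 46) and 2 lower. The higher genes were Cx3cr1 (10.5 ± 7.26 and 0.647 ± 0.509 CPM, adjusted p = 0.0168), S100a4 (13.1 ± 5.61 and 1.53 ± 1.05 CPM, 0.0172), Mrc1 and Mertk. The lower genes were Fcgr4 (1.61 ± 1.04 and 15.2 ± 5.30 CPM, 0.0118) and Sirpa (86.2 ± 22.9 and 224 ± 56.2 CPM, 0.0112). Ccr2 (255 and 295 CPM) and F13a1 (184 and 251 CPM), both monocyte genes, were not called. The 7 markers that were not tested were Timd4, at 0, and C1qa, C1qb, C1qc, Marco, Aif1 and Ms4a7, below the filter. The macrophage marker Adgre1 (Emr1 in the table), which encodes F4/80, was at 23.2 ± 17.8 and 89.4 ± 65.1 CPM, highest in GMP 5 at 159 CPM, and was not called (adjusted p = 0.113). Neutrophil markers summed to 70.9 to 205 CPM in LSK-derived and 49.8 to 640 CPM in GMP-derived libraries, and GMP 19, which had the most Lyz2, was the highest. Mmp8, which encodes a neutrophil collagenase, carried most of the LSK-derived sum (105 ± 66.3 and 16.6 ± 14.1 CPM, adjusted p = 0.0912). S100a9, Ngp and Csf3r were called lower, with S100a9 at 1.30 ± 1.45 and 73.4 ± 105 CPM (0.0476). S100a9 was at 5.37, 20.1 and 195 CPM in the GMP-derived libraries and lost its call in 7 of 12 alternatives. Ly6g was called higher (3.21 ± 0.557 and 0.926 ± 0.396 CPM, 0.0142). Of 10 neutrophil markers tested, 1 was called higher and 3 lower (median log2 fold change -1.89), with 0 lower without LSK 44 or LSK 46 and 9 without GMP 5, where the filter admitted more genes. Markers of dendritic cells, which normally express Ctss and class II genes, summed to 51.2 to 73.5 and 9.26 to 24.7 CPM, without overlap. Most of that sum was Flt3 (48.4 ± 9.02 and 12.97 ± 5.76 CPM), a receptor gene that blood progenitors also express. Zbtb46, Xcr1, Clec9a, Cd209a and Cd8a were below the filter, Clec9a with the higher mean in GMP-derived libraries, and Batf3 was at 0. B cell markers summed to 15.8 to 22.4 and 4.71 to 14.2 CPM, most of it Cd79b (18.1 ± 3.73 and 5.45 ± 2.07 CPM) except in GMP 19. There Igll1 was at 7.59 and Cd79b at 5.48 CPM. Igll1 ran the other way (0.259 ± 0.159 and 3.65 ± 3.58 CPM), and Ms4a1 and Pax5 were at 0. Those of T and NK cells summed to 6.90 to 8.12 and 7.18 to 7.59 CPM, nearly all of it Lck, with Cd3e, Cd8b1 and Ncr1 at 0. Erythroid and megakaryocyte markers summed to 24.9 to 199 and 1.87 to 13.3 CPM. In the LSK-derived libraries most of it was Hbb-b2 (50.2 ± 47.1 and 0.160 ± 0.252 CPM, adjusted p = 0.00697) and Itga2b. Mast cell and basophil markers summed to 109 to 156 and 87.9 to 338 CPM, with Mcpt4 at 0. In the LSK-derived libraries most of the sum was Gata2 (77.6 ± 26.6 and 23.8 ± 18.9 CPM), which was not called (adjusted p = 0.0699). The 338 CPM was GMP 5, with Hdc at 185 and Cpa3 at 88.5 CPM. Hdc was called lower (10.2 ± 2.39 and 102 ± 72.1 CPM, 0.00742) and Mcpt8 higher (30.6 ± 1.13 and 13.1 ± 1.96 CPM, 0.00153). The part of any of these in the members' levels was not tested, and in bulk RNA fewer cells of a type and less RNA per cell cannot be told apart.

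**Figure D5:**
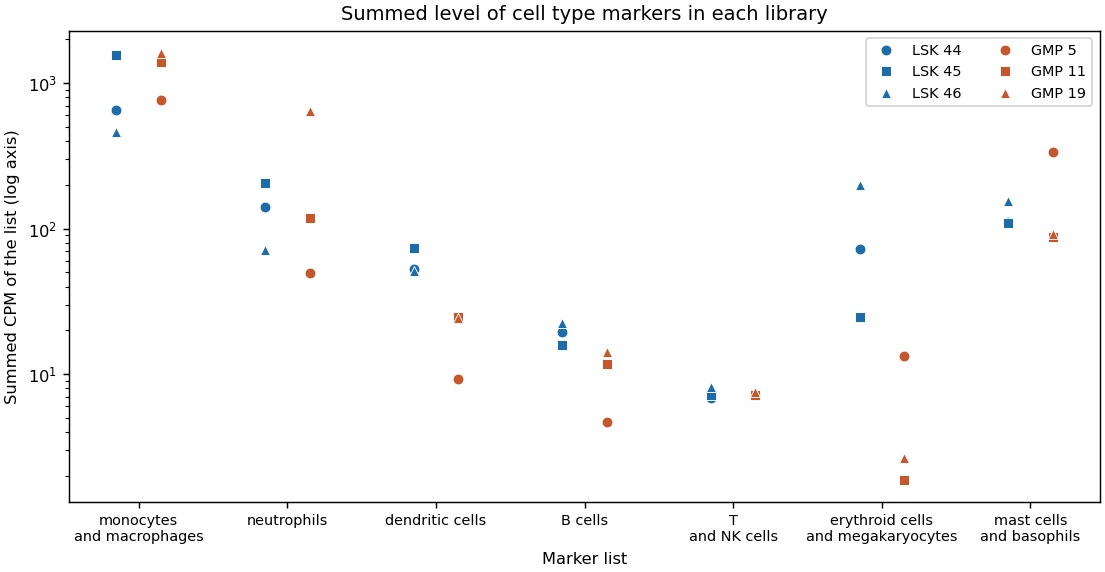
Summed CPM (log axis) of each cell type's markers in every library. Monocyte and macrophage sums overlap between the groups, GMP 19 is highest for neutrophils (640 CPM), and dendritic cell sums, most of them Flt3, are higher in all 3 LSK-derived libraries.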

How the data were processed

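Per the labels' protocols, TRIzol RNA was sequenced from TruSeq RNA libraries. The authors deposited raw read counts per gene symbol, with no normalization, and 12325 of the 33924 rows were at 0 in all 6 libraries. The submitters' processing notes name the build mm9, HTSeq 0.6.1, STAR 2.4 and DESeq2, with no role or order. Annotation and strand setting were not given in the sources used here. The replicate columns differed beyond sampling noise (chi-square per degree of freedom at least 9.70).

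The main test was edgeR 4.0.16 under R 4.3.3 (filterByExpr, TMM, robust glmQLFit, glmQLFTest) on the 6 libraries with no covariate, and p-values were adjusted by Benjamini-Hochberg over all 13406 tested genes. CPM is the deposited count over the library's TMM-scaled total. The approximate SE is the size of the log2 fold change over the root of the test's F. DESeq2 1.42.0 and limma 3.58.1 voom were alternatives, beside other scalings, no filter, summed copies and leaving out each library. The edgeR step was tested on simulated data. Lists used older symbols through RefSeq synonyms. Promoters are of GRCm38.p6 and transcripts of GENCODE M21, another build than mm9.

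The members and lists were chosen with earlier results of these data known. Named genes were all members and, from each list, the called genes with up to 3 smallest p in each direction and at least 1 CPM in the higher group, of which examples are given. Ccr2, F13a1, Adgre1, Mertk, Mmp8, Cpa3, Lck, Itga2b, H2-Ab1, Cd74, Spi1, Irf8, Gata2 and the markers below the filter were chosen after their values were seen.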

Additional observations from a re-analysis of the deposited data

How the results depend on the processing

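The call of Ifi30 (adjusted p 1.52e-09 to 0.0228) and that of Slc11a1 (0.000315 to 0.0428) were kept in all 12 alternatives, and no member changed direction in any. The count of members called higher was 0 in each alternative except DESeq2, where it was 1 (Cd68, adjusted p = 0.0407, over a range up to 0.332 without the filter on low counts). Without the filter, 21599 genes were tested. Of 64 related genes that the naming rule gave and that were called, 42 kept the call in all their alternatives and 22 lost it in at least 1; none reversed. The difference in the share of Lyz1 was 0.0809 percentage points, or 0.0310 from pooled counts, and that of Ly6c1 was 0.0702, or 0.111. No paired analysis was possible because the groups share no replicate number. Depth limits Lyz1, with 7 and 9 counts in the groups, and Slc11a1, with 19 and 179. With 3 libraries a group, members with a wide spread, such as Mpeg1 and Lyz2, may differ by amounts that did not pass.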
